A study of Homo sapiens with 6 samples.

Results

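SW480 cells, an established line from a human colorectal adenocarcinoma, were compared between 1 hairpin against PCYT2 and a nontargeting hairpin, across all genes. The cells carried a short hairpin RNA in a lentiviral pLKO.1 vector and had been selected with puromycin. The nontargeting control is shNT (2 libraries), and the first hairpin against PCYT2, labelled shPcyt2_1, is written here as shPcyt2-1 (2 libraries). A second hairpin (shPcyt2-2, 2 libraries) entered the fit to estimate the spread, so that 4 of the 6 libraries of the series make up the comparison. All 3 groups share the line, the vector and the selection, and each hairpin was studied as a selected population of 1 line. Levels were deposited as normalized values per gene that were read as FPKM, fragments per kilobase of transcript scaled to library size, and they summed to between 396467 and 402612 FPKM per library. The number of reads behind them is unknown. In bulk RNA, fewer cells of a type and less RNA per cell cannot be told apart. Of 19746 genes in the joined tables, the 12756 with a mean of at least 0.5 FPKM were tested, and a gene that a table does not list was set to 0. Differences are log2 fold changes of FPKM + 1, which understate the change of low genes, and a gene was called when its limma p, adjusted over all tested genes by the Benjamini-Hochberg method, was under 0.05. The labels do not say whether the 2 libraries of a group came from separate cultures, so the p-values measure only the spread between these libraries, which may be technical.

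PCYT2 encodes the enzyme that makes CDP-ethanolamine from CTP and phosphoethanolamine, the rate-limiting step of the CDP-ethanolamine route to phosphatidylethanolamine. Phosphatidylethanolamine is an abundant phospholipid of the inner leaflet of the plasma membrane and of the mitochondrial inner membrane, and it is the lipid to which LC3 proteins are coupled in autophagy. A parallel route in mitochondria makes it from phosphatidylserine through PISD. The study asked how loss of PCYT2 bears on migration of colorectal cancer cells, and it followed YAP1, the effector of the Hippo pathway, and PEBP1, a phosphatidylethanolamine-binding protein.

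PCYT2 itself (ENSG00000185813, chromosome 17, 81900965 to 81911464, GRCh38) was at 11.6 and 13.8 FPKM with shNT and 7.11 and 7.36 FPKM with shPcyt2-1. Both shPcyt2-1 libraries lay below both shNT libraries, and the means were 12.7 ± 1.51 and 7.23 ± 0.171 FPKM (SD, n = 2 each), a ratio of 0.570. The log2 fold change was -0.73 (SE 0.10, limma adjusted p = 0.00205), and it lay between -0.84 and -0.62 with each library left out in turn. PCYT2 transcripts are rich in G and C, and after correction for GC content and length, described below, the value was -0.51 (limma adjusted p = 0.00372).

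With shPcyt2-1, 3400 of the 12756 genes changed, which is 26.7%. Of these, 2109 (16.5% of tested genes) were higher and 1291 (10.1%) were lower. The changes were mostly small, with a median absolute log2 fold change of 0.41 among called genes, and 31 genes rose and 38 fell by more than 1 on the log2 scale. Of the called genes, 27 higher ones would not have reached the tested level by the mean of the other 4 libraries, and 21 lower ones by the mean of the 4 libraries with a PCYT2 hairpin, so that the filter favored a difference in them. The 2 shPcyt2-1 libraries lay on one side of both shNT libraries for 69.0% of all tested genes. Most genes named below were chosen among these, so that groups which do not overlap follow from the choice and are given as a description. The number called rests on single libraries. It was 1731 (13.6%) without shNT replicate 2, 1147 (8.99%) without shPcyt2-1 replicate 1 and 1821 (14.3%) without shPcyt2-1 replicate 2, against 3068 without shNT replicate 1. The median log2 fold change of all genes was 0.07, and scaling by median ratios moved it to 0.00026 and turned the split of 62.0% higher among called genes into 44.7%, with 1422 higher and 1758 lower. A small rise or fall is therefore relative to the scale of the values, and medians of gene lists below are to be read against 0.07.

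**Figure D1:**
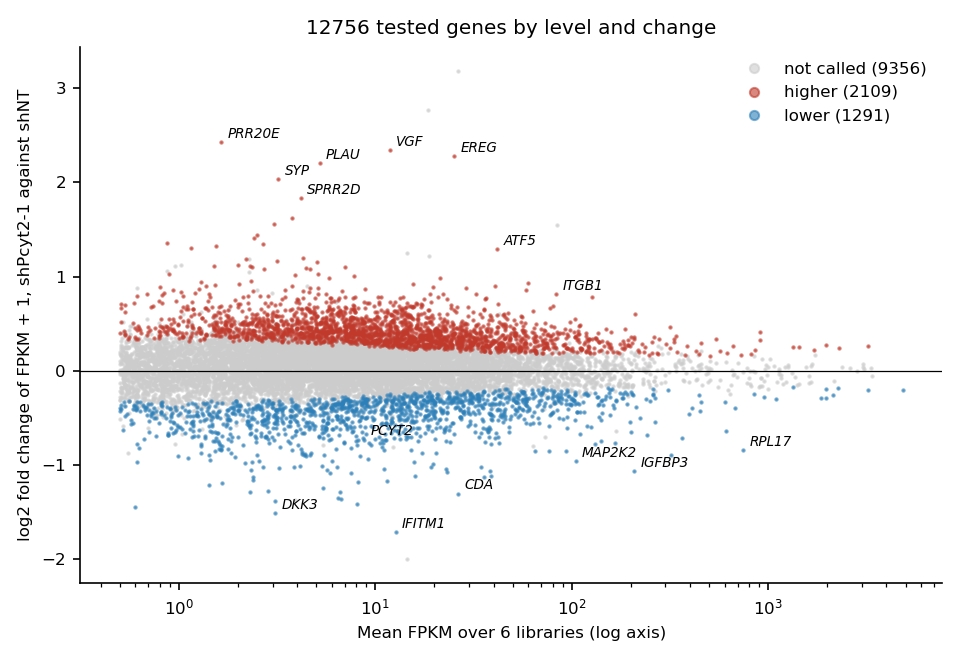
Each point is 1 of the 12756 tested genes, by its mean FPKM over the 6 libraries (log axis) and its log2 fold change of FPKM + 1 between shPcyt2-1 and shNT. The 2109 genes called higher are red, the 1291 called lower are blue, and most of both lie within 1 of zero, with VGF, EREG, PLAU and IFITM1 among the genes far outside.

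The direction of change followed base composition. When genes were divided by GC content into 5 bins of equal size, the bin with the lowest content (29.7% to 41.3% of the longest transcript) had 624 genes higher and 50 lower, with a median log2 fold change of 0.20. In the bin with the highest content (59.0% to 87.9%), 107 were higher and 612 lower, with a median of -0.12. Each shPcyt2-1 library showed this against the same shNT mean, with medians of 0.22 and 0.17 in the lowest bin and of -0.13 and -0.11 in the highest. Both comparisons share that control and are not independent. The 2 shNT libraries differed from each other along the same axis by a like amount, since shNT replicate 2 minus replicate 1 had a median of -0.14 in the lowest bin and 0.14 in the highest. Between the 2 shPcyt2-1 libraries the medians were -0.05 and 0.03. For a corrected version, a smooth trend of each library on GC content and length was subtracted. Then 3430 genes were called (2256 higher, 1174 lower) and the medians of the lowest and highest bins were 0.06 and 0.07. The part that base composition has in any single gene's change was not tested, and corrected values are given for the genes whose log2 fold change is described and moves by over 1.5 times or whose call changes. Corrected counts stand beside some of the gene lists, and those of the others follow after the lists.

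**Figure D2:**
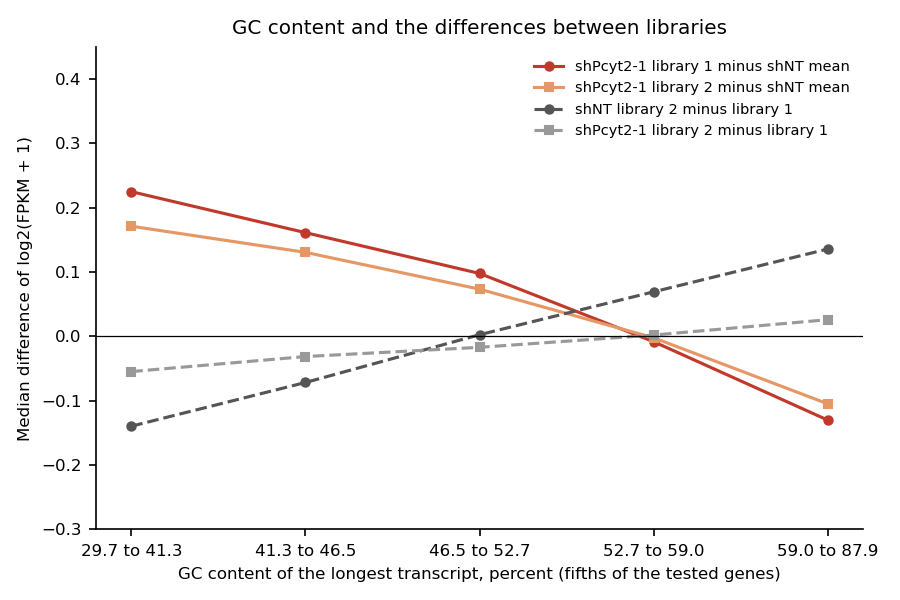
Median difference of log2(FPKM + 1) over the genes of each of 5 bins by GC content of the longest transcript, for each shPcyt2-1 library against the mean of shNT (solid) and between the 2 libraries of a group (dashed). The solid lines fall from 0.22 and 0.17 to -0.13 and -0.11, and the line between the 2 shNT libraries rises from -0.14 to 0.14.

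Among protein-coding genes with a mean of at least 1 FPKM, the 12 largest rises include EREG, VGF and PLAU, whose products are all released from cells. EREG (ENSG00000124882, chromosome 4, 74365143 to 74388751), which encodes epiregulin, a ligand of EGFR and ERBB4, was at 11.4 and 8.85 FPKM with shNT and 53.2 and 52.1 FPKM with shPcyt2-1 (log2 fold change 2.28, SE 0.10, limma adjusted p = 3.04e-05). VGF (ENSG00000128564, chromosome 7, 101162509 to 101165593), a precursor of secreted neuropeptides, was at 4.21 and 5.03 FPKM with shNT and 27.8 and 27.0 FPKM with shPcyt2-1 (log2 fold change 2.34, SE 0.12, limma adjusted p = 3.37e-05). PLAU (ENSG00000122861, chromosome 10, 73909177 to 73917497), which encodes the urokinase plasminogen activator, was at 1.86 and 1.58 FPKM with shNT and 12.2 and 10.9 FPKM with shPcyt2-1 (log2 fold change 2.21, SE 0.10, limma adjusted p = 3.04e-05). In each of these 3 genes both shPcyt2-1 libraries were several times above both shNT libraries and close to one another. SYP, the synaptic vesicle protein synaptophysin (ENSG00000102003, chromosome X, 49187804 to 49200259), was at 0.910 and 1.35 FPKM with shNT and 7.27 and 8.16 FPKM with shPcyt2-1 (log2 fold change 2.04, SE 0.13, limma adjusted p = 0.000115). UCN2, which encodes the hormone urocortin 2, was at 1.16 and 1.47 FPKM with shNT and 5.42 and 5.08 FPKM with shPcyt2-1, and its log2 fold change was 1.44 (SE 0.14, limma adjusted p = 0.000638). ATF5, a transcription factor of the bZIP family that is induced in the integrated stress response, was the most abundant of the 12 at 25.9 and 31.6 FPKM with shNT and 70.7 and 72.4 FPKM with shPcyt2-1, and its log2 fold change was 1.29 (SE 0.09, limma adjusted p = 0.000161). The groups do not overlap in any of the 3. ENC1, a kelch protein that binds actin, was at 1.83 and 1.23 against 5.14 and 5.65 FPKM (log2 fold change 1.35), and TMEM145, a membrane protein, was at 0.482 and 0.426 against 2.52 and 2.67 FPKM. GZMB, the protease granzyme B, was at 0.870 and 1.08 against 3.39 and 5.20 FPKM (1.40). PRR20E (0.118 and 0 against 5.17 and 4.26 FPKM), KRTAP2-3, a keratin-associated protein of hair (1.69 and 2.00 against 8.01 and 7.55 FPKM, 1.63) and SPRR2D, a precursor of the cornified envelope of skin (1.68 and 1.91 against 8.04 and 9.89 FPKM, 1.83) complete the 12. These 3 have near-identical copies beside them in the genome, so how reads were shared among the copies is uncertain. PRR20E and TMEM145 reached the tested level only through shPcyt2-1, so that no test is given for them, and the others kept their call with each library left out in turn and after correction for GC content and length.

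The stretches of 150 bases before the start sites of EREG, its neighbor AREG and VGF are shown because EREG and VGF are among the largest rises and AREG, another EGFR ligand, lies next to EREG and rose less. AREG was at 51.9 and 46.1 FPKM with shNT and 61.9 and 70.7 FPKM with shPcyt2-1 (log2 fold change 0.43, SE 0.10, limma adjusted p = 0.0134), and its call was lost without shNT replicate 2, without shPcyt2-1 replicate 2 or with median-ratio scaling. The stretches come from the RefSeq promoter table (GRCh38.p14), in which 17 of the 24 genes named for the largest changes have an entry, and were chosen after the values were seen. Capitals mark matches to a cAMP response element (TGACGTCA, which reads the same on both strands) or to a TATA box (TATAAA, on either strand).
EREG (chr4:74364995-74365144, plus strand): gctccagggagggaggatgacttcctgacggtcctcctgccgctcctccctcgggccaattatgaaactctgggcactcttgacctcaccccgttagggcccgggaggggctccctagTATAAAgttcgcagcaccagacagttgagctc
AREG (chr4:74444986-74445135, plus strand): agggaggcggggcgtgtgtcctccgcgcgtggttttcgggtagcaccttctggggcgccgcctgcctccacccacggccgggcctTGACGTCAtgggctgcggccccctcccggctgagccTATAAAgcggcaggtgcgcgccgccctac
VGF (chr7:101165570-101165719, minus strand): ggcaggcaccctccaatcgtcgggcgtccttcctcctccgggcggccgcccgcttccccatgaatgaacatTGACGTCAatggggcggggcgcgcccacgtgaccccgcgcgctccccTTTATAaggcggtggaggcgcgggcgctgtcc
The cAMP response element letters stand 65 bases before the start in AREG and 79 bases before it in VGF, and they were not found in this window of EREG. Of all 35116 promoter entries, 1.40% hold them in the same window. TATA box letters stand 32, 29 and 32 bases before the start in EREG, AREG and VGF, in VGF on the other strand (TTTATA), and 6.71% of all entries hold them. No match overlaps another, and a match is a description of the letters, not of a bound site. Nothing is read from the shares over all entries, since the stretches were chosen after the values were seen.

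The 12 largest falls were led by IFITM1 (ENSG00000185885, chromosome 11, 313506 to 315272), an interferon-induced membrane protein that restricts virus entry, at 16.6 and 14.8 FPKM with shNT and 2.62 and 6.09 FPKM with shPcyt2-1 (log2 fold change -1.72, SE 0.24, limma adjusted p = 0.00237). The 2 shPcyt2-1 libraries differed from one another but both lay below shNT. IFITM1 lies inside the annotated span of IFITM2 on the same strand, so how reads were shared between them is uncertain. DKK3, a secreted protein of the dickkopf family, was at 4.65 and 4.89 FPKM with shNT and 0.979 and 1.07 FPKM with shPcyt2-1 (log2 fold change -1.51, SE 0.14, limma adjusted p = 0.000511). IGFBP7, a secreted protein related to the IGF-binding proteins, was at 7.05 and 10.8 FPKM with shNT and 2.52 and 2.83 FPKM with shPcyt2-1 (log2 fold change -1.41, SE 0.16, limma adjusted p = 0.0011). CD70, the ligand of CD27 on T cells, was at 3.18 and 3.82 FPKM with shNT and 0.752 and 0.678 FPKM with shPcyt2-1 (log2 fold change -1.39, SE 0.11, limma adjusted p = 0.000312). In all of these genes every shPcyt2-1 library was below every shNT library. COL6A2, a chain of collagen VI, was at 8.14 and 7.85 against 2.44 and 2.59 FPKM (log2 fold change -1.36, limma adjusted p = 0.000129). MRC2, an endocytic receptor for collagen, was at 3.33 and 3.86 against 0.848 and 0.928 FPKM (-1.28, limma adjusted p = 0.000312). Both encode proteins of collagen networks or their turnover, and both lie on GC-rich transcripts, with values of -1.13 and -1.08 after correction for GC content and length. CDA, the cytidine deaminase of pyrimidine salvage, was the most abundant of the 12 at 29.1 and 29.3 against 10.2 and 12.3 FPKM (-1.30). SFRP5, a secreted Wnt antagonist, was at 6.72 and 7.59 against 2.44 and 2.45 FPKM (-1.24), and KLK1, tissue kallikrein, at 8.03 and 9.26 against 2.48 and 3.02 FPKM (-1.36). LEMD1, a protein with a LEM domain (10.7 and 7.67 against 3.53 and 3.34 FPKM, -1.18) and MIA, a small secreted protein (6.48 and 8.86 against 3.52 and 1.74 FPKM, -1.29) were also lower. SMIM11 (2.33 and 4.48 against 1.70 and 0.137 FPKM, -1.29, limma adjusted p = 0.0312) has a near-identical copy and is the only 1 of the 24 whose call depends on a single library. It was not called without shNT replicate 2, without shPcyt2-1 replicate 2 or without either shPcyt2-2 library, with log2 fold changes from -1.91 to -0.66 over the libraries left out.

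Of all genes, 3463 (27.1%) differed between shPcyt2-1 and shPcyt2-2, and of the 24 genes with the largest changes 23 did, all but SMIM11. Since the 24 were chosen for their values in the same shPcyt2-1 libraries, the choice favors a difference, and nothing is read from that count. EREG was at 12.3 and 12.9 FPKM with shPcyt2-2, VGF at 2.97 and 3.93 FPKM, PLAU at 2.33 and 2.36 FPKM and IFITM1 at 17.2 and 18.96 FPKM. The differences, shPcyt2-1 minus shPcyt2-2, were 1.98 (SE 0.10) for EREG, 2.68 (SE 0.12) for VGF, 1.91 (SE 0.10) for PLAU and -1.91 (SE 0.24) for IFITM1 on the log2 scale, given as a description for the same reason. PCYT2 was at 6.71 and 6.18 FPKM with shPcyt2-2, and its difference of 0.15 (SE 0.10) between the hairpins was not called (limma adjusted p = 0.309).

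Genes of lipid synthesis were taken up first because PCYT2 acts there. For each gene list the share called is to be read against the 26.7% of all tested genes, or 16.5% higher and 10.1% lower. Of 11 tested genes of phosphatidylethanolamine synthesis, 4 rose and 3 fell (63.6% called, against 26.7% of all genes), PCYT2 among the latter. After correction for GC content and length 3 rose and 1 fell, and with median-ratio scaling 2 rose and 3 fell. SGPL1, the lyase that releases phosphoethanolamine from sphingosine phosphate, rose from 10.2 and 10.7 FPKM to 16.6 and 16.5 FPKM (log2 fold change 0.61, SE 0.09, limma adjusted p = 0.0032). ETNK1, the ethanolamine kinase that acts before PCYT2, rose from 13.9 and 12.4 FPKM to 19.5 and 18.3 FPKM (log2 fold change 0.50, SE 0.10, limma adjusted p = 0.00739, 0.33 after correction). PISD of the mitochondrial route was at 14.96 and 14.99 against 17.2 and 18.7 FPKM (0.24, limma adjusted p = 0.0495), a call lost with any 1 of the 6 libraries left out and with median-ratio scaling. SGPL1 and ETNK1 supply the substrate of PCYT2. Of the list 3 members were called without shNT replicate 2, without shPcyt2-1 replicate 1 or without shPcyt2-1 replicate 2. In the phosphatidylcholine branch 2 of 13 were called (15.4%), LPCAT3, which puts polyunsaturated chains into phospholipids (0.40), and LPCAT4 (-0.34), with 1 called without shNT replicate 2 and neither without shPcyt2-1 replicate 1. Of 27 sterol synthesis and SREBP genes 7 rose and 1 fell (29.6% called). That count was 2 without shNT replicate 2, 5 without either shPcyt2-2 library, and all 8 calls were lost without either shPcyt2-1 library. Of 24 genes of fatty acid and glycerolipid synthesis 6 rose and 1 fell (29.2% called), with ELOVL5, an elongase of polyunsaturated fatty acids, at 31.1 and 27.9 against 46.6 and 46.4 FPKM (log2 fold change 0.64, SE 0.07, limma adjusted p = 0.00109). This list had 3 or 4 called members when any 1 shNT or shPcyt2-1 library was left out. The shares of both lists lie near the 26.7% of all genes.

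Genes of pericellular proteolysis and adhesion moved both ways. Of the 7 tested genes of the plasminogen activator system 3 rose and 2 fell (71.4% called). Beside PLAU, the plasminogen receptor annexin ANXA2 rose from 513 and 482 FPKM to 619.8 and 636 FPKM (0.34, limma adjusted p = 0.00468), a call lost with median-ratio scaling. SERPINE2, an inhibitor of urokinase, fell from 18.5 and 17.5 FPKM to 10.4 and 11.1 FPKM (log2 fold change -0.69, SE 0.08, limma adjusted p = 0.000979). PLAU was thus higher and SERPINE2 lower in each shPcyt2-1 library than in each shNT library. PLG, the zymogen itself, is not listed in any library. Of 19 tested metalloproteinases, ADAMs and TIMPs 5 rose and 6 fell (57.9% called). Those that rose include the sheddases ADAM17 (11.7 and 11.5 against 17.7 and 18.2 FPKM, 0.58) and ADAM9 (2.63 and 2.31 against 4.77 and 4.06 FPKM, 0.64) and MMP24 (0.284 and 0.316 against 0.847 and 1.17 FPKM), which reached the tested level only through shPcyt2-1 and had to differ. The inhibitor TIMP2 fell (48.1 and 51.0 against 38.7 and 39.7 FPKM, -0.33), a call lost without shPcyt2-1 replicate 1. Without shNT replicate 2 or shPcyt2-1 replicate 2 the list had 5 called members, and 3 without shPcyt2-1 replicate 1. After correction for GC content and length 7 rose and 2 fell.

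Of 20 tested integrins and laminins 7 rose and 3 fell (50% called, against 26.7% of all genes). ITGB1, the beta 1 chain that pairs with many alpha chains, rose from 67.4 and 59.8 FPKM to 114 and 111 FPKM (log2 fold change 0.82, SE 0.08, limma adjusted p = 0.000578), and its collagen-binding partner ITGA2 from 5.57 and 4.90 FPKM to 9.57 and 9.19 FPKM (log2 fold change 0.74, SE 0.11, limma adjusted p = 0.00306). The laminin chain LAMA3 (10.8 and 10.95 against 19.3 and 16.4 FPKM, 0.66) rose as well, while ITGA3 fell (28.0 and 30.6 against 20.2 and 20.1 FPKM, -0.51, -0.34 after correction). The list had 6 called members without shPcyt2-1 replicate 1. Among 22 tested collagens and other matrix proteins 4 rose and 9 fell (59.1% called). Their median log2 fold change was -0.12 (-0.17 to -0.072 with 1 library left out). The collagen VI chains COL6A1 (24.7 and 24.6 against 10.3 and 11.99 FPKM, log2 fold change -1.08, SE 0.08, limma adjusted p = 0.000291) and COL6A2, and LOXL2, an enzyme that crosslinks collagen (6.23 and 6.31 against 2.42 and 2.59 FPKM, log2 fold change -1.05, SE 0.09, limma adjusted p = 0.000388), fell most. TNC, the glycoprotein tenascin C, rose from low levels (0.824 and 0.966 against 2.69 and 2.44 FPKM, 0.91), as did the fibronectin gene FN1 (5.50 and 5.74 against 8.64 and 9.50 FPKM, 0.60). The list had 7 called members without shNT replicate 2 and 8 without shPcyt2-1 replicate 1. Its members have a median GC content of 58.6%, and after correction 7 rose, 8 fell and the median was 0.04. COL3A1 is not listed in any library.

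The study followed markers of epithelial and mesenchymal state. CDH1 (E-cadherin) was at 15.1 and 14.7 FPKM with shNT and 15.1 and 15.4 FPKM with shPcyt2-1 (log2 fold change 0.033, limma adjusted p = 0.763), which turned to -0.042 with median-ratio scaling and was 0.0027 after correction for GC content and length and 0.015 to 0.051 with 1 library left out. VIM (vimentin) was at 86.5 and 83.6 FPKM with shNT and 71.6 and 78.8 FPKM with shPcyt2-1 (-0.18, limma adjusted p = 0.0753, -0.25 to -0.11 with 1 library left out), SNAI1 at 8.26 and 8.73 against 7.54 and 8.89 FPKM (-0.047) and ZEB1 at 0.835 and 0.684 against 0.686 and 0.595 FPKM (-0.10, -0.24 after correction and -0.16 to -0.038 with 1 library left out). None of these passed the test as fitted. SNAI2 was at 0.885 and 1.08 against 1.47 and 1.69 FPKM (0.38, limma adjusted p = 0.055), where both shPcyt2-1 libraries were above shNT but the test was passed only with either shPcyt2-2 library left out, with the 4 libraries of the comparison alone or without the mean-variance trend. CDH2 (N-cadherin) is not listed in any library and TWIST1 was at 0.0215 FPKM in 1 shNT library and not above 0 in the other 3 libraries of the comparison. VIM passed the test once the libraries were scaled by median ratios or corrected for GC content and length (-0.24). The value of SNAI1 changed sign without shPcyt2-1 replicate 1 (0.060) and after correction (0.063). Of 13 tested mesenchymal markers and regulators of the epithelial-mesenchymal transition 1 rose (FN1) and 2 fell (23.1% called). Those that fell were SNAI3 (-0.57), a call lost without shPcyt2-1 replicate 1 and after correction (-0.35), and the epithelial factor ELF3 (24.3 and 26.4 against 16.5 and 16.4 FPKM, log2 fold change -0.60, SE 0.09, limma adjusted p = 0.00264). Among 33 epithelial junction genes 7 rose and 9 fell (48.5% called), and 8 rose and 6 fell after correction. The tight junction proteins TJP3 (6.65 and 7.47 against 2.77 and 3.56 FPKM, log2 fold change -0.96, SE 0.12, limma adjusted p = 0.00158) and CLDN3 (42.7 and 44.3 against 25.4 and 27.4 FPKM, log2 fold change -0.70, SE 0.07, limma adjusted p = 0.000576, -0.43 after correction) fell, and CLDN1 rose (27.0 and 25.9 against 39.7 and 35.8 FPKM, 0.50). This count was 9 without shNT replicate 2, 5 without shPcyt2-1 replicate 1 and 10 without shPcyt2-1 replicate 2.

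Markers of the line were present in every library. The epithelial keratins KRT8 (3602 and 3861 against 3540.2 and 3649 FPKM) and KRT18 (3242 and 3487 against 3437 and 3394 FPKM), EPCAM (281 and 258 against 312 and 298 FPKM) and the intestinal villin gene VIL1 (38.8 and 39.2 against 39.5 and 39.7 FPKM) were not called. The 12 epithelial markers summed to 8247 and 8809.8 FPKM with shNT and 8459 and 8553 FPKM with shPcyt2-1, and KRT8 was the most abundant. CEACAM5 was below 0.5 FPKM in all libraries. Of 11 tested epithelial markers 3 fell (27.3% called), the intestinal transcription factors CDX2 (15.5 and 16.9 against 10.01 and 9.88 FPKM, log2 fold change -0.65, SE 0.08, limma adjusted p = 0.00138) and HNF4A (31.9 and 36.1 against 24.8 and 25.0 FPKM, log2 fold change -0.43, SE 0.08, limma adjusted p = 0.00505) and the galectin LGALS4, whose call was lost without shNT replicate 2 or shPcyt2-1 replicate 1. In the wider list of intestinal identity 6 fell and 1 rose of 20 tested (35.0% called, median -0.18, or -0.053 after correction for GC content and length). Its median was -0.21 to -0.11 with 1 library left out, and it had 3 called members without shPcyt2-1 replicate 1. TFF3, a mucosal peptide of goblet cells, fell from 73.7 and 75.6 FPKM to 54.0 and 55.9 FPKM (-0.44). Of 22 markers of other cell types 7 reached the tested level, PTPRC and MS4A1 are not listed in any library, and the 22 summed to 55.8 and 54.8 FPKM with shNT and 59.3 and 58.8 FPKM with shPcyt2-1. HBA1 was the most abundant of them at 21.3 and 21.6 against 22.6 and 21.1 FPKM and the only one called was ALB, a call that was lost without shNT replicate 2 or without any 1 library that carries a PCYT2 hairpin, with median-ratio scaling and after correction (log2 fold change 0.50, 0.38 after correction and 0.24 to 0.77 with 1 library left out). Of 17 tested keratins of stratified and simple epithelia 5 were higher and 2 lower (41.2% called), or 3 and 2 with median-ratio scaling. KRT17 (49.8 and 48.3 against 87.1 and 102 FPKM, log2 fold change 0.93, SE 0.10, limma adjusted p = 0.000806) and KRT7 (3.79 and 3.21 against 7.10 and 7.45 FPKM, log2 fold change 0.88, SE 0.12, limma adjusted p = 0.00198) rose and KRT15 fell (6.73 and 6.42 against 3.78 and 4.01 FPKM, -0.63). Of the keratins 7 rose and 1 fell after correction. With shPcyt2-1 replicate 1 left out 3 keratins were called, and with replicate 2 left out 4. Of 11 tested S100 genes, which encode small calcium-binding proteins, 3 rose and 5 fell (72.7% called, 3 members without shPcyt2-1 replicate 1), and S100A3 fell most (258 and 237 against 157 and 182 FPKM, -0.54).

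In the Hippo pathway, in which the kinases LATS1 and LATS2 phosphorylate YAP1 and WWTR1 (TAZ) and keep them from TEAD factors in the nucleus, 4 of 18 tested components rose (22.2% called). YAP1 was at 25.8 and 25.5 FPKM with shNT and 28.4 and 28.1 FPKM with shPcyt2-1 (0.13, limma adjusted p = 0.269, 0.05 after correction) and was not called. WWTR1 was at 3.36 and 3.45 FPKM with shNT and 2.60 and 2.50 FPKM with shPcyt2-1 (-0.31, limma adjusted p = 0.0689). It was not called either, but passed with a value of -0.43 after correction for GC content and length, with median-ratio scaling, and when only the 4 libraries of the comparison were fitted or when either shPcyt2-2 library was left out. TEAD1 (0.34), TEAD2 (0.38), LATS1 (0.40) and MOB1B (0.42) were the 4 that rose. The list had 1 called member, TEAD2, without shNT replicate 2 or without shPcyt2-1 replicate 1, TEAD2 was not called without shNT replicate 1, and each of the 4 lost its call without shPcyt2-1 replicate 2. LATS1 (0.27) and MOB1B (0.25) were not called after correction. Of 20 tested YAP and TAZ target genes 2 rose and 2 fell (20% called), and 1 rose and 3 fell after correction. CCN2 (CTGF) rose from 1.65 and 1.46 FPKM to 3.91 and 3.29 FPKM (log2 fold change 0.85, SE 0.12, limma adjusted p = 0.00239), while CCN1 was at 2.76 and 3.00 against 2.24 and 2.77 FPKM and was not called. IGFBP3 fell from 280.2 and 263 FPKM to 121 and 138 FPKM (log2 fold change -1.06, SE 0.07, limma adjusted p = 0.000129). The targets had 2 called members without either shPcyt2-1 library. PXN (paxillin) was at 39.5 and 40.6 against 39.5 and 43.7 FPKM (0.052) and was not called, and its value was -0.019 without shPcyt2-1 replicate 2 and -0.027 with median-ratio scaling, while it was called after correction for GC content and length (0.20). Of 38 focal adhesion and actin genes 3 rose and 8 fell (28.9% called, 6 and 7 after correction), with FLNC, filamin C, higher (9.60 and 9.72 against 13.9 and 15.8 FPKM, 0.57). That list had 6 called members without shNT replicate 2, 1 without shPcyt2-1 replicate 1 and 7 without shPcyt2-1 replicate 2.

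Within the RAS-ERK cascade, 5 of 18 tested genes rose and 1 fell (33.3% called, near the 26.7% of all genes). MAP2K2, which encodes the kinase MEK2, fell from 123 and 141 FPKM to 67.4 and 67.4 FPKM (log2 fold change -0.96, SE 0.07, limma adjusted p = 0.000226), the largest change of the list, and was at 114 and 114 FPKM with shPcyt2-2. The GTPase gene NRAS rose (12.4 and 11.2 against 18.3 and 17.6 FPKM, 0.57). PEBP1 was at 79.6 and 83.0 FPKM with shNT and 90.2 and 88.2 FPKM with shPcyt2-1 (0.13, limma adjusted p = 0.116) and was not called, but it passed after correction for GC content and length (0.16). Its value was 0.053 with median-ratio scaling. PPP2R1A, the scaffold subunit of protein phosphatase 2A, was at 62.9 and 67.1 against 72.9 and 76.0 FPKM (0.19, limma adjusted p = 0.0493), a call lost without shNT replicate 1 or any 1 library that carries a PCYT2 hairpin and with median-ratio scaling. The cascade had 3 called members without shNT replicate 2 or without shPcyt2-1 replicate 1. Of 26 tested genes of ERK output and feedback 8 rose and 5 fell (50% called, 6 members without shPcyt2-1 replicate 1). The AP-1 factor FOSL1 (48.3 and 50.7 against 68.3 and 73.1 FPKM, log2 fold change 0.51, SE 0.07, limma adjusted p = 0.00269) and the ERK phosphatase DUSP4 (19.4 and 21.0 against 28.2 and 28.6 FPKM, log2 fold change 0.47, SE 0.07, limma adjusted p = 0.00331) rose. PHLDA2 (26.6 and 30.5 against 12.1 and 14.8 FPKM, log2 fold change -1.04, SE 0.12, limma adjusted p = 0.00119) and CCND1, cyclin D1 (132 and 134 against 96.8 and 97.6 FPKM, log2 fold change -0.45, SE 0.05, limma adjusted p = 0.00123), fell.

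Of the 11 tested EGF family ligands and receptors, the ligands EREG and AREG rose, AREG not under every setting, and 4 genes fell (54.5% called). With median-ratio scaling 1 was higher and 4 lower. EGFR was at 3.38 and 3.23 against 2.08 and 2.06 FPKM (log2 fold change -0.49, SE 0.10, limma adjusted p = 0.00883) and ERBB2 at 19.5 and 21.7 against 14.4 and 14.9 FPKM (log2 fold change -0.47, SE 0.08, limma adjusted p = 0.00456). Both are receptors of this family. The ligand HBEGF fell (6.92 and 6.59 against 4.84 and 5.31 FPKM, -0.35), a call lost without shNT replicate 1 or without shNT replicate 2 or without shPcyt2-1 replicate 1 or without shPcyt2-1 replicate 2, so that ligands moved both ways. ERRFI1, a feedback inhibitor of EGFR, fell as well (11.96 and 10.4 against 6.06 and 6.45 FPKM, log2 fold change -0.75, SE 0.10, limma adjusted p = 0.00171). EGFR lost its call without shPcyt2-1 replicate 1.

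Of 24 tested Wnt and beta-catenin target genes 3 rose and 9 fell (50% called), and 2 rose and 6 fell after correction, with a median of -0.15 (-0.16 after correction for GC content and length). NOTUM, a secreted enzyme that inactivates Wnt ligands, was at 129 and 153 against 99.8 and 100.2 FPKM (log2 fold change -0.49, SE 0.08, limma adjusted p = 0.0043, -0.26 after correction), and the feedback gene AXIN2 was at 66.3 and 67.1 against 54.2 and 54.7 FPKM (-0.29), a call lost without either shPcyt2-1 library. The list had 6 called members without shNT replicate 2, 5 without shPcyt2-1 replicate 1 and 6 without shPcyt2-1 replicate 2. Of 28 TGF-beta and BMP genes 4 rose and 7 fell (39.3% called). The type II receptor TGFBR2 rose (16.01 and 14.6 against 32.2 and 30.3 FPKM, log2 fold change 0.99, SE 0.08, limma adjusted p = 0.000312), and INHBA, the activin A subunit, was at 0.357 and 0.220 against 1.32 and 1.14 FPKM, reached the tested level only through shPcyt2-1 and had to differ. LTBP2, a binding protein of latent TGF-beta, fell (1.39 and 1.57 against 0.632 and 0.663 FPKM, -0.59). This count was 5 without shNT replicate 2 or shPcyt2-1 replicate 1 and 6 without shPcyt2-1 replicate 2. In the IGF axis 2 of 16 rose and 5 fell (43.8% called, 4 members without either shPcyt2-1 library), and all 3 of the largest falls were IGF-binding proteins or related to them. IGFBP2 was at 39.6 and 42.5 against 19.2 and 20.3 FPKM (log2 fold change -1.02, SE 0.07, limma adjusted p = 0.000161), beside IGFBP3 (280.2 and 263 against 121 and 138 FPKM, -1.06) and IGFBP7 (7.05 and 10.8 against 2.52 and 2.83 FPKM, -1.41). IGF2BP1, an RNA-binding protein, rose (7.85 and 8.26 against 12.6 and 11.96 FPKM, 0.55).

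Of 21 tested semaphorins, plexins and neuropilins 5 rose and 5 fell (47.6% called, 6 members without shNT replicate 2, 5 without shPcyt2-1 replicate 1). They are GC-rich (median 60.5%), and 7 rose and 2 fell after correction, so that the even split did not hold. SEMA7A, a membrane-anchored semaphorin that signals through beta 1 integrins (2.71 and 3.31 against 7.72 and 8.06 FPKM, log2 fold change 1.15, SE 0.11, limma adjusted p = 0.000576), and NRP1, a coreceptor of class 3 semaphorins and VEGF (3.26 and 2.68 against 7.68 and 7.14 FPKM, log2 fold change 1.09, SE 0.11, limma adjusted p = 0.00062), rose. PLXND1 (12.9 and 13.05 against 6.51 and 7.95 FPKM, log2 fold change -0.77, SE 0.10, limma adjusted p = 0.00161) and SEMA6B (13.1 and 14.95 against 8.70 and 8.77 FPKM, -0.62, -0.38 after correction) fell. Of 15 Eph receptors and ephrins 2 rose and 5 fell (46.7% called), with the ephrin EFNB3 at 3.44 and 3.74 against 2.17 and 2.16 FPKM (-0.53). Their median GC content is 60.3%, and after correction 4 rose and 2 fell. That list had 2 called members without shNT replicate 2, 1 without shPcyt2-1 replicate 1 and 4 without shPcyt2-1 replicate 2.

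Among 15 tested chemokine, cytokine and NF-kB feedback genes 4 rose and 3 fell (46.7% called, 6 and 3 after correction). CXCL8, the neutrophil chemoattractant interleukin 8, rose from 2.68 and 2.25 FPKM to 6.17 and 7.77 FPKM (log2 fold change 1.20, SE 0.12, limma adjusted p = 0.000722). IL23A rose from 2.61 and 1.87 FPKM to 5.49 and 5.54 FPKM (log2 fold change 1.02, SE 0.12, limma adjusted p = 0.00126) and CXCL1 from 0.379 and 0.718 FPKM to 1.49 and 1.45 FPKM (0.68). TNFAIP2 (3.35 and 3.99 against 2.09 and 2.11 FPKM, -0.59), LIF (13.7 and 13.7 against 8.90 and 9.92 FPKM, -0.50) and the transmembrane chemokine CXCL16 (20.8 and 20.7 against 13.6 and 14.6 FPKM, -0.53) fell. In the TNF superfamily 3 of 19 rose and 5 fell (42.1% called, 5 and 4 after correction), among the latter the ligands CD70, TNFSF9 (3.86 and 4.13 against 1.79 and 2.38 FPKM, log2 fold change -0.70, SE 0.12, limma adjusted p = 0.00427) and TNFSF12 (3.62 and 3.75 against 2.08 and 1.91 FPKM, -0.65). This list had 5 called members without either shNT library and 4 without either shPcyt2-1 library. Of 12 tested genes of MHC class I presentation 2 rose (16.7% called), the chaperone genes CANX and PDIA3, and both lost their call without shNT replicate 2 or either shPcyt2-1 library, PDIA3 also without shNT replicate 1. Neither was called with median-ratio scaling. After correction CANX (0.21) and PDIA3 (0.14) were not called.

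Of 25 tested interferon response genes 3 rose and 4 fell (28.0% called), and 3 of the 4 falls were IFITM genes that lie close together on chromosome 11. In the annotation used, IFITM2 (307631 to 315272) spans the whole of IFITM1 (313506 to 315272) on the same strand. How reads were shared between IFITM1 and IFITM2 is uncertain, so their falls may not be separate. IFITM3 was at 42.5 and 51.1 FPKM with shNT and 21.4 and 20.6 FPKM with shPcyt2-1 (log2 fold change -1.11, SE 0.09, limma adjusted p = 0.000301), and IFITM2 at 118 and 116 FPKM with shNT and 91.5 and 93.8 FPKM with shPcyt2-1 (-0.33, limma adjusted p = 0.00406). IFITM1, the third, fell most. The exonuclease gene ISG20 rose (14.2 and 13.1 against 22.7 and 22.5 FPKM, log2 fold change 0.69, SE 0.08, limma adjusted p = 0.00119). The list had 4 called members without shNT replicate 2 or without shPcyt2-1 replicate 1. The 150 bases before the start sites of IFITM1 and IFITM3, also from RefSeq (GRCh38.p14), are shown because both genes fell. These RefSeq starts differ from the ends of the GENCODE spans. Both stretches lie inside those spans (IFITM1 313506 to 315272, IFITM3 319669 to 327537). Capitals mark the letters of an interferon-stimulated response element (GAAA, any 2 bases and GAAA, searched on both strands).
IFITM1 (chr11:313890-314039, plus strand): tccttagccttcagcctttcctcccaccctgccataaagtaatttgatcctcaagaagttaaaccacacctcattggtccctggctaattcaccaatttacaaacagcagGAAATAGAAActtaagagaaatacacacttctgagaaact
IFITM3 (chr11:320861-321010, minus strand): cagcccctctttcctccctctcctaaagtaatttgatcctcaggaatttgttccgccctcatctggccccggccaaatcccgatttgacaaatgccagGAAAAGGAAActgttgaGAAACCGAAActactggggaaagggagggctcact
The letters stand 40 bases before the start of IFITM1 and 52 and 35 bases before that of IFITM3, and 1.74% of all 35116 entries hold them in this window. Nothing is read from that share, since both genes were chosen for their falls.

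Of 44 tested genes of DNA replication and S phase 17 were higher (38.6%, against 16.5% of all genes) and the other 27 were not called, with a median log2 fold change of 0.30 against 0.07 over all genes. GINS1, a subunit of the replicative helicase, was at 7.05 and 6.53 FPKM with shNT and 12.2 and 12.52 FPKM with shPcyt2-1 (log2 fold change 0.78, SE 0.10, limma adjusted p = 0.00161). RRM2, the small subunit of ribonucleotide reductase, was at 19.7 and 19.7 FPKM with shNT and 33.8 and 30.9 FPKM with shPcyt2-1 (log2 fold change 0.68, SE 0.07, limma adjusted p = 0.000877), and DTL, which targets CDT1 for degradation, at 3.83 and 4.59 FPKM with shNT and 7.77 and 7.52 FPKM with shPcyt2-1 (log2 fold change 0.73, SE 0.12, limma adjusted p = 0.00363). The clamp loader gene RFC3 (8.24 and 8.48 against 14.01 and 12.9 FPKM, 0.63) and the clamp PCNA (91.1 and 93.5 against 130.2 and 119 FPKM, 0.43) rose as well. PCNA was called with each library left out except shPcyt2-1 replicate 1. The list had 6 higher members without shPcyt2-1 replicate 1, and 11 higher and 1 lower without shNT replicate 1. After correction for GC content and length 19 members were higher, with a median of 0.26. Of 41 mitotic genes 4 were higher (9.76%), with a median of 0.17 that became 0.065, with 2 called, after correction for GC content and length. That median was 0.045 to 0.28 with 1 library left out and 0.095 with median-ratio scaling. The number of called mitotic genes was 14 (13 higher, 1 lower) without shNT replicate 1, where it was above the 12 of DNA replication, 1 without shNT replicate 2 and 2 without either shPcyt2-2 library, and neither shPcyt2-1 library could be left out without the loss of all 4 calls. The difference between both lists was not tested.

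**Figure D3:**
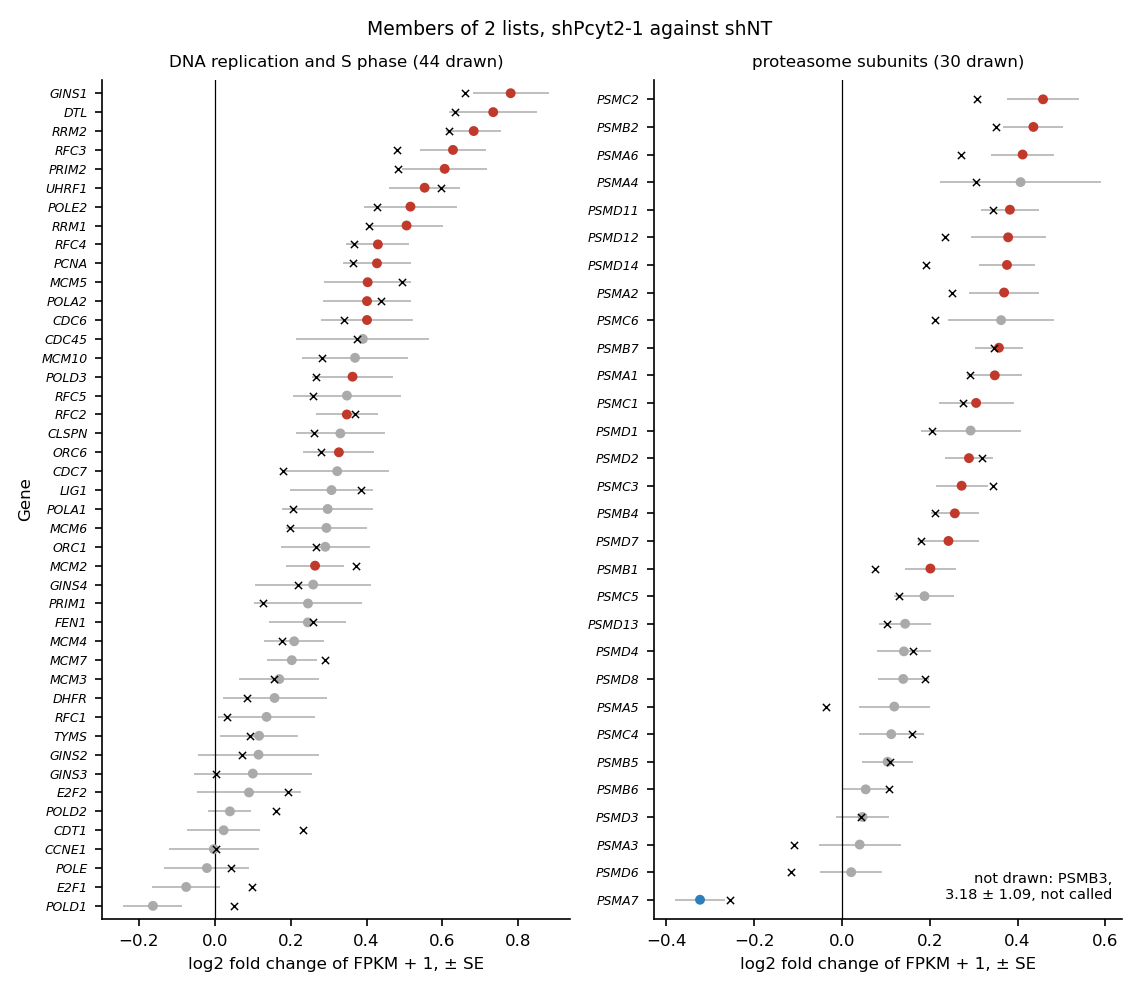
Log2 fold change of FPKM + 1 between shPcyt2-1 and shNT (points, with the SE as a bar) of the genes of DNA replication and S phase and of the proteasome, red where called higher, blue where called lower and grey where not called, and the corrected value (crosses). Most points lie right of zero in both lists, and PSMB3, with a value of 3.18 ± 1.09, is written in and not drawn.

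Of 31 tested proteasome subunits 15 were higher and 1 lower (51.6% called, against 26.7% of all genes), with a median of 0.27, and 30 had a positive log2 fold change. The ATPase subunit PSMC2 was at 46.4 and 41.2 FPKM with shNT and 62.6 and 58.3 FPKM with shPcyt2-1 (log2 fold change 0.46, SE 0.08, limma adjusted p = 0.00534), the core subunit PSMB2 at 23.6 and 22.9 FPKM with shNT and 32.3 and 31.3 FPKM with shPcyt2-1 (log2 fold change 0.44, SE 0.07, limma adjusted p = 0.00346) and the lid subunit PSMD11 at 26.8 and 25.8 FPKM with shNT and 34.0 and 35.2 FPKM with shPcyt2-1 (log2 fold change 0.38, SE 0.07, limma adjusted p = 0.00473). They come from the base, the core and the lid of the particle, and each was higher in both shPcyt2-1 libraries. The core subunit PSMA7 was the 1 that fell (281 and 271 against 222 and 219 FPKM, -0.32). PSMB3, with the largest difference of any tested gene (3.18, SE 1.09), ranged from 1.06 to 5.30 with 1 library left out and was not called (limma adjusted p = 0.0583), since its libraries disagreed within groups (0.113 and 19.97 against 65.5 and 27.8 FPKM), and it passed without shNT replicate 2 or without shPcyt2-1 replicate 2. The list had 8 called members without shPcyt2-1 replicate 1 and 10 without shPcyt2-1 replicate 2, and after correction for GC content and length it again had 15 higher and 1 lower, with a median of 0.21.

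Of 34 tested chaperones 16 were higher and 2 lower (52.9%), with a median of 0.19, but the count rests on single libraries and on the scale. It was 2 without shNT replicate 2 or shPcyt2-1 replicate 1, 4 without shPcyt2-1 replicate 2, and with median-ratio scaling 2 were higher and 2 lower. After correction for GC content and length 11 were higher and 2 lower. The small heat shock protein HSPB1 fell (484 and 514 against 357 and 387 FPKM, log2 fold change -0.42, SE 0.06, limma adjusted p = 0.0031, -0.21 after correction). In the unfolded protein and integrated stress response 11 of 32 rose and 2 fell (40.6% called). SEL1L, part of the machinery that clears misfolded proteins from the endoplasmic reticulum, rose from 10.5 and 9.35 FPKM to 16.1 and 15.3 FPKM (log2 fold change 0.62, SE 0.10, limma adjusted p = 0.00405), while the chaperone HSP90B1 fell from 125 and 106 FPKM to 77.3 and 75.8 FPKM (log2 fold change -0.59, SE 0.09, limma adjusted p = 0.00278). Asparagine synthetase ASNS, a target of the integrated stress response, rose (240.1 and 218 against 297 and 290.4 FPKM, 0.36). That list had 5 called members without shNT replicate 2, 4 without shPcyt2-1 replicate 1 and 5 without shPcyt2-1 replicate 2. Of 21 amino acid transporters 7 rose and 1 fell (38.1% called, median 0.24, 10 and 1 after correction), led by SLC36A1, a lysosomal transporter (2.09 and 2.32 against 4.74 and 4.17 FPKM, log2 fold change 0.77, SE 0.11, limma adjusted p = 0.00225), while SLC7A7 fell (3.76 and 3.22 against 1.93 and 1.74 FPKM, -0.66). With shPcyt2-1 replicate 1 left out 3 were called, and with replicate 2 left out 4.

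In autophagy, in which LC3 proteins are coupled to phosphatidylethanolamine, 10 of 38 tested genes rose and 1 fell (28.9% called, 7 members without shPcyt2-1 replicate 1). MAP1LC3B, which encodes LC3B, rose from 37.7 and 32.4 FPKM to 52.7 and 53.6 FPKM (log2 fold change 0.59, SE 0.08, limma adjusted p = 0.00192), and ATG12, part of the conjugating machinery, from 11.7 and 8.53 FPKM to 16.001 and 16.2 FPKM (log2 fold change 0.63, SE 0.13, limma adjusted p = 0.00865). The lysosomal membrane gene LAMP2 rose (14.03 and 12.47 against 22.1 and 20.6 FPKM, log2 fold change 0.65, SE 0.10, limma adjusted p = 0.00358), and the initiating kinase ULK1 fell (21.5 and 21.4 against 14.6 and 15.7 FPKM, -0.48, -0.26 after correction). Of 30 genes of the NRF2, glutathione and ferroptosis list 9 rose and 4 fell (43.3% called, 7 members without shPcyt2-1 replicate 1). The transferrin receptor TFRC rose (57.2 and 54.5 against 91.3 and 87.0 FPKM, log2 fold change 0.67, SE 0.08, limma adjusted p = 0.00119), and GPX2, the gastrointestinal glutathione peroxidase, fell (270.4 and 262 against 159 and 173 FPKM, log2 fold change -0.68, SE 0.06, limma adjusted p = 0.000371). Of 23 p53 target genes 6 rose and 3 fell (39.1% called, against 26.7% of all genes, and 5 members without shPcyt2-1 replicate 1), with PLK2 (9.60 and 10.1 against 16.1 and 17.1 FPKM, 0.70) higher and BBC3, which encodes the proapoptotic protein PUMA, lower (41.2 and 47.3 against 26.7 and 29.05 FPKM, -0.65, -0.39 after correction).

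In the list of glycolysis and hypoxia response 5 of 32 rose and 9 fell (43.8% called, 7 members without shPcyt2-1 replicate 1). A positive log2 fold change was found in 13 members, up to 0.52, and only members that fell are named here. NDRG1 (102 and 95.3 against 49.99 and 58.9 FPKM, log2 fold change -0.85, SE 0.11, limma adjusted p = 0.00182), the carbonic anhydrase CA9 (39.4 and 44.9 against 25.9 and 28.1 FPKM, log2 fold change -0.62, SE 0.09, limma adjusted p = 0.00219) and the glucose transporter SLC2A1 (467 and 496 against 345 and 357 FPKM, -0.46) fell, and all are induced by hypoxia. ALDOA was also called lower, but its 2 shPcyt2-1 libraries stood far apart (406 and 386 against 309 and 147 FPKM, -0.89, -1.43 to -0.36 with 1 library left out), and the call was lost without either shNT library or either shPcyt2-2 library and after correction for GC content and length (-0.87, limma adjusted p = 0.0575). Of 60 nuclear genes of the respiratory chain 9 rose and 2 fell (18.3%), among them NDUFS1 of complex I (3.06 and 3.06 against 4.76 and 4.76 FPKM, 0.51) and NDUFA4 (69.3 and 61.9 against 93.6 and 89.4 FPKM, log2 fold change 0.48, SE 0.07, limma adjusted p = 0.00262). With shPcyt2-1 replicate 1 left out 5 were called and with replicate 2 left out 6, without shNT replicate 1 there were 12 higher and 4 lower, and 16 rose and 2 fell after correction for GC content and length. The protein-coding genes of the mitochondrial genome are not listed. Of 77 cytosolic ribosomal protein genes 5 rose and 12 fell (22.1%), or 5 and 20 after correction, with 3 called without shPcyt2-1 replicate 1 and 8 without shPcyt2-1 replicate 2. Without shNT replicate 1 the split was even, with 12 higher and 13 lower. RPL17 fell most (910.3 and 774 against 449 and 488 FPKM, log2 fold change -0.84, SE 0.08, limma adjusted p = 0.000477), and since ribosomal protein genes have many processed copies their values are uncertain. Of 34 SR and hnRNP splicing factors 12 rose and 1 fell (38.2% called), but after correction for GC content and length 6 rose, 4 fell and the median moved from 0.17 to 0.04. That list had 8 called members without shNT replicate 1, 7 without shNT replicate 2, 1 without shPcyt2-1 replicate 1 and 5 without shPcyt2-1 replicate 2.

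The counts of small rises depend on the scale. With median-ratio scaling the numbers higher and lower were 15 and 0 for DNA replication, 10 and 1 for the proteasome and 8 and 2 for autophagy. They were 3 and 1 for sterol synthesis, 3 and 1 for fatty acid synthesis, 5 and 2 for the unfolded protein and integrated stress response and 4 and 1 for amino acid transporters. They were 4 and 4 for the NRF2 list, 6 and 3 for splicing factors and 5 and 2 for the respiratory chain. The TNF superfamily and the S100 genes had 5 lower members each and none higher. The RAS-ERK cascade had 5 and 3, integrins and laminins 6 and 5, ERK output 6 and 7, TGF-beta and BMP genes 4 and 10, the IGF axis 2 and 8, YAP and TAZ targets 1 and 5, and ribosomal proteins 1 and 9 higher and lower. The plasminogen activator system had 1 and 2, collagens and matrix proteins 4 and 10, epithelial junctions 6 and 10, mesenchymal markers 1 and 3, focal adhesion genes 1 and 9 and Hippo components 4 and 1. Mitotic genes had 1 and 0, interferon response genes 2 and 4, intestinal identity genes 1 and 8, glycolysis and hypoxia genes 3 and 9 and p53 targets 4 and 3. Eph receptors and ephrins had 2 and 7, semaphorins, plexins and neuropilins 5 and 6 and the phosphatidylcholine branch 1 and 2.

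Correction for GC content and length shifted further counts. The numbers higher and lower were then 10 and 6 for ERK output, 6 and 1 for the RAS-ERK cascade, 7 and 8 for glycolysis and hypoxia, 8 and 2 for integrins and laminins, 3 and 6 for the IGF axis and 3 and 8 for TGF-beta and BMP genes. They were 2 and 4 for interferon response genes, 11 and 2 for autophagy, 8 and 1 for sterol synthesis, 7 and 0 for fatty acid synthesis, 4 and 1 for Hippo components, 3 and 4 for S100 genes, 10 and 2 for the unfolded protein and integrated stress response and 1 and 3 for the epithelial markers of the line.

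Along the genome, chromosome 20 had the largest share of called genes, 37.1% of 383 tested, with 88 higher and 54 lower. On chromosome 19, which is rich in GC (median 59.2%), 75 genes were higher and 174 lower, and its median of -0.03 became 0.07 after correction for GC content and length. The 154 tested genes with a ZNF symbol on that chromosome, which encode zinc finger transcription factors, have a median GC content of 42.7%. Of these 18 were higher and 4 lower (14.3% called, against 26.7% of all genes), with a median of 0.18, or 0.10 after correction. Chromosome 15 had 80 genes higher and 15 lower of 394 tested (24.1% called), with a median of 0.14, or 0.08 after correction. By type, 27.3% of 11948 protein-coding genes were called, 23.3% of 172 long intergenic RNAs and 13.3% of 218 antisense genes, whose reads cannot be told apart from those of the other strand unless the counting used strand.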

How the data were processed

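RNA-Seq was analysed for SW480 cells with shNT, shPcyt2-1 and shPcyt2-2, 2 libraries each. For every library the authors deposited normalized values by Ensembl identifier, which were read as FPKM, since they are not whole numbers. TPM over part of the genes could not be told apart from it. The aligner and annotation are not given in the sources used here, and the submitters' processing notes name mouse builds (GRCm38, mm10) beside GRCh38. For library preparation 2 kits are named in the labels, and which served which library is not given. The study's methods name a count test, which these values do not allow. Depth in reads is unknown, so that no counting error is given.

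Of 21539 identifiers, 115 repeated within a library were summed and 999 groups with identical values were merged. Names, positions (GENCODE 29, GRCh38), GC content and length came from reference tables, and 19504 identifiers were found in GENCODE 29. limma 3.58.1 in R 4.3.3 was fitted to log2(FPKM + 1) with 3 groups and a mean-variance trend over 12756 genes. The same fit was also run on simulated data whose levels and spread were taken from these libraries. Genes named are PCYT2 and the 12 higher and 12 lower protein-coding genes with the largest change. These were taken among called genes with a mean of at least 1 FPKM and groups that do not overlap (readthrough genes left out). Up to 4 called members of each of 43 gene lists, with groups that do not overlap, were added without the limit of 1 FPKM. Genes the study names were added as well. Other list members named were chosen after their values were seen, and members whose call was lost with 1 library left out were mostly passed over. A few genes that the rule names are not reported here. The comparison, the lists and the rule were chosen with earlier results of these data known. Alternatives covered the pseudocount, the filter, the libraries fitted, the replicate number, scaling, the variance trend, GC content and length, and repeated rows. Python 3.11.15 and matplotlib 3.10.9 drew the figures.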

Additional observations from a re-analysis of the deposited data

How the results depend on the processing

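The number of genes changed by shPcyt2-1 was 3400 (2109 higher, 1291 lower). Without the filter on low values, over 19746 genes, it was 1831 (1078 higher, 753 lower). With each library left out it ranged from 1147 to 3256, with 626 to 2036 higher and 521 to 1250 lower. It was lowest without shPcyt2-1 replicate 1. With median-ratio scaling 1422 were higher and 1758 lower, and the cause was not tested. Other settings, a pseudocount of 0.1, a mean over the 4 libraries, only these 4 libraries in the fit, equal sums, no variance trend, a correction for GC content and length, and the highest of repeated rows, gave between 2941 and 3430. PCYT2 was called under every setting run. Of the 24 genes with the largest changes, 23 differed between the hairpins. The replicate numbers share only a number, since deviations of same-numbered libraries correlated by 0.0027, 0.0619 and 0.191 between pairs of groups, and a replicate block gave 3884 calls (2490 higher, 1394 lower). With the block PCYT2 was at -0.73.

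Of 208 named genes, 123 kept their direction and their side of the threshold under every setting. Values that changed sign were those of CDH1 with median-ratio scaling (-0.042), of SNAI1 after correction for GC content and length (0.063) and of PXN with median-ratio scaling (-0.027). With each library left out SNAI1 ranged from -0.15 to 0.060 and PXN from -0.019 to 0.12. These values were not called.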

Other observations

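Beside VGF and SYP, other genes of secretory granules and synaptic vesicles were examined as a list that was added after values were seen, so that it supports nothing on its own. Of 31 members 20 were tested, 6 rose and 2 fell (40.0% called, against 26.7% of all genes, median log2 fold change -0.018), and after correction for GC content and length 8 rose and 3 fell (median 0.053). The sign of the median rests on single libraries, since it reached 0.041 with 1 library left out. CPLX2, a regulator of vesicle fusion, was at 3.44 and 3.41 FPKM with shNT and 8.75 and 8.05 FPKM with shPcyt2-1 (log2 fold change 1.09, SE 0.10, limma adjusted p = 0.000405). STX1A, a SNARE protein of the plasma membrane, was at 10.2 and 10.1 against 16.6 and 15.7 FPKM (log2 fold change 0.62, SE 0.09, limma adjusted p = 0.00225), and the granin CHGB, which would not have reached the tested level by the other 4 libraries, at 0.326 and 0.502 against 1.45 and 1.12 FPKM. In each of them both shPcyt2-1 libraries were above both shNT libraries. SCG2, another granin, was below the tested level over the 6 libraries, at 0.0204 and 0.0198 FPKM with shNT and 1.07 and 1.09 FPKM with shPcyt2-1. SYT7, a calcium sensor of exocytosis, fell (6.41 and 7.63 against 4.49 and 4.43 FPKM, -0.55), as did UCHL1 (2.32 and 2.32 against 0.937 and 1.15 FPKM, -0.70), a call lost without shNT replicate 2 or shPcyt2-1 replicate 1. The neuroendocrine transcription factor genes INSM1 (1.09 and 1.26 against 0.507 and 0.850 FPKM) and NEUROD1 (1.91 and 1.87 against 1.93 and 1.55 FPKM) and the marker ENO2 (39.4 and 41.4 against 45.5 and 45.1 FPKM) were not called.

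Among genes with a difference above 1 on the log2 scale that were not described, 2 stood out when single libraries were read. IFI27L2 was at 17.4 and 19.4 FPKM with shNT and 0.588 and 13.8 FPKM with shPcyt2-1 (log2 fold change -1.999, limma adjusted p = 0.0809, -3.61 to -0.39 with 1 library left out). It was not called, since 1 shPcyt2-1 library was near the controls, and it was called without shPcyt2-1 replicate 2. RGPD6, which has near-identical copies, was at 1.97 and 1.59 FPKM with shNT and 0.0133 and 0.0165 FPKM with shPcyt2-1 and at 0.00955 and 0.00963 FPKM with shPcyt2-2. All 4 libraries with a PCYT2 hairpin lay below both shNT libraries, and it reached the tested level only through shNT, so that no test is given. Both were chosen after their values were seen.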
